A study of Mus musculus with 27 samples.

Results

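The comparison described here is that of Per1-/- cells with WT cells on day 2 of the conversion of mouse embryonic fibroblasts (MEFs) into induced neurons (iNs). All libraries whose labels give day 2 and one of these genotypes were used, 3 of Per1-/- and 3 of WT, which are 6 of the 27 libraries of the series. Both groups had been transduced with the same set of neuronal transcription factors, which turn fibroblasts into neuron-like cells when expressed together and include *Pou3f2*. The viruses had been added beforehand, and doxycycline and a neuronal medium started the conversion, which places these libraries early in it. The Per1-/- allele is Per1tm1Drw, carried in a line named B6.129, and the mutation is germline, so that all cells of the culture carried it. WT and Per1-/- mice were obtained by breeding, and whether WT embryos were littermates is not given in the sources used here. The MEFs were grown from embryos without head and heart that were pooled, without determination of their sex, and used at an early passage. Replicates are biological replicates by their labels, but which embryos stand behind each is not given in the sources used here.

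*Per1* encodes one of the Period proteins, which form complexes with the cryptochromes and repress CLOCK and BMAL1, the activators of the circadian clock. This loop gives many promoters a daily rhythm in almost all cells, fibroblasts and macrophages included. Apart from their role in timing, clock proteins are known to restrain inflammatory genes in macrophages. A MEF culture is a mixture made from whole embryos, in which fibroblasts predominate and smaller numbers of muscle precursors, macrophages, and nerve-associated cells can persist.

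Expression is given as FPKM, that is fragments per kilobase of exon, scaled by the size of the library. Differences are given on the log2(FPKM + 0.1) scale as Per1-/- minus WT, so that they understate changes of weakly expressed genes. They were tested with limma over 14932 of 54532 genes, which averaged 0.5 FPKM or more across all 27 libraries. A gene was called when its adjusted p (Benjamini-Hochberg) was at most 0.05 and its log2 difference at least 0.58 in size. A wider rule, with the same fold but an unadjusted p of at most 0.05, serves only to describe direction, because no correction for the number of genes stands behind it. The 6 libraries held 16270681 to 24264097 fragments on genes. For single genes, the smallest two-sided p that exact permutation of 3 libraries against 3 allows is 0.1.

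The labels were checked first. *Per1* (chromosome 11, 69095217 to 69109960, GRCm38) was at 4.49, 4.51, and 3.62 FPKM in Per1-/- replicates 1 to 3 and at 4.76, 4.81, and 4.83 FPKM in the WT replicates. All Per1-/- values lay below all WT values, but the log2 difference was only -0.19 (standard error 0.138, adjusted p = 0.999 from limma). The values are for the whole gene, so a transcript that lacks the targeted part would still be counted, and the table cannot show the mutation. *Pou3f2*, one of the transduced factors, was high in both groups, at 250 to 309 FPKM in Per1-/- and 228 to 406 FPKM in WT cells. Of 14 markers of fibroblasts, 13 had at least 1 FPKM in all 6 libraries. So did 17 of 27 genes of the neuronal cytoskeleton and 15 of 30 genes of synaptic vesicles and release. Among the latter, *Snap25* was low, at 0.111 to 0.227 FPKM. Hemoglobin genes (*Hbb-bs* and *Hba-a1*) were at 0 in all 6.

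Per1-/- replicate 1 stood apart from the other 5 libraries. *Xist*, the RNA that coats the inactive X chromosome of female cells, had 2 fragments in this library and 24 to 35.5 FPKM in the other 5. The Y-linked genes *Ddx3y* and *Eif2s3y* were at 24.1 and 20.7 FPKM there, against 8.73 to 11.4 and 7.35 to 10.5 FPKM in the others. The same replicate number had 1 *Xist* fragment on day 0 and 1 on day 4, and the other 15 WT and Per1-/- libraries had 11.1 to 40.3 FPKM. On day 2, 443 genes lay at least 0.58 beyond all other libraries in Per1-/- replicate 1, compared with 136 to 244 genes for each of the other 5. The part of sex in the results below was not tested, and values without this library are given beside a number of them. *Xist*, *Ddx3y*, and *Eif2s3y* were chosen after their values were seen.

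The differences between the genotypes were small over the whole transcriptome. Their median was -0.01, the 10th percentile -0.22, and the 90th percentile 0.28. Only *Xaf1* was called higher in Per1-/- cells, 1 gene in 14932 (0.0067%), and 0 genes (0%) were called lower, with 127 genes lower at an unadjusted p under 0.05 in limma and 0 called lower with voom weights. The paper, using DESeq2 on counts at the same thresholds, called many more genes higher on this day, so the number called depends on the method. At the wider rule, 164 genes (1.1%) were higher and 55 (0.368%) were lower. Of 12754 protein-coding genes, 136 were higher (1.07%) and 19 lower (0.149%). Of 740 processed pseudogenes, 13 were higher (1.76%) and 9 lower (1.22%). The asymmetry of protein-coding genes thus lay in a small share of lower genes, not in a large share of higher ones. By level, 86 were higher and 12 lower of 3383 protein-coding genes in the lowest class of expression, and 13 were higher and 1 lower of 4747 in the highest, when all tested genes were cut into 3 equal classes. The split changed to 132 higher and 80 lower with FPKM rescaled to a common sum, to 117 and 83 with the mean of the macrophage markers as a covariate, and to 100 and 63 without Per1-/- replicate 1.

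The count of genes whose libraries do not overlap gives another view of direction. In 785 genes (5.26%) all Per1-/- libraries were above all WT libraries, and in 749 genes (5.02%) all were below, which is nearly even. Thus, the excess of higher genes lay in those with large differences. Altogether 648 genes were at least 0.58 higher, and 357 at least 0.58 lower.

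Of the 164 higher genes, 133 were also above 0 on day 0 and 150 on day 4, where 48% and 47.7% of all tested genes were above 0. Their median difference was 0.37 on day 0, 0.90 on day 2, by which they were chosen, and 0.72 on day 4. Of the 55 lower genes, 37 were below 0 on day 0 and 39 on day 4, where 51.9% and 52.3% of all genes were. The libraries of the 3 days are separate, but libraries with the same replicate number deviated together, Per1-/- across all days and WT between days 2 and 4, so the days may share cultures. No gene was called for a genotype effect that differed between day 2 and day 0 or day 4 (0% in each, limma interaction contrasts). In the same limma contrasts, 306 and 182 genes were at an unadjusted p under 0.05.

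The 41 gene lists, which cover 1345 tested genes, were placed by their medians (the plot of all members by function). In 20 lists the median was above 0 and in 21 below. Of these, 8 lists had a median of at least 0.2, and mitosis was the only list at or below -0.2. No member passed even the wider rule in 28 lists. With FPKM rescaled to a common sum, 7 medians that lay closest to 0 turned from above to below it, namely both clock lists, collagens, cell death, glycolysis, ribosomal proteins, and the nuclear respiratory chain.

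**Figure D1:**
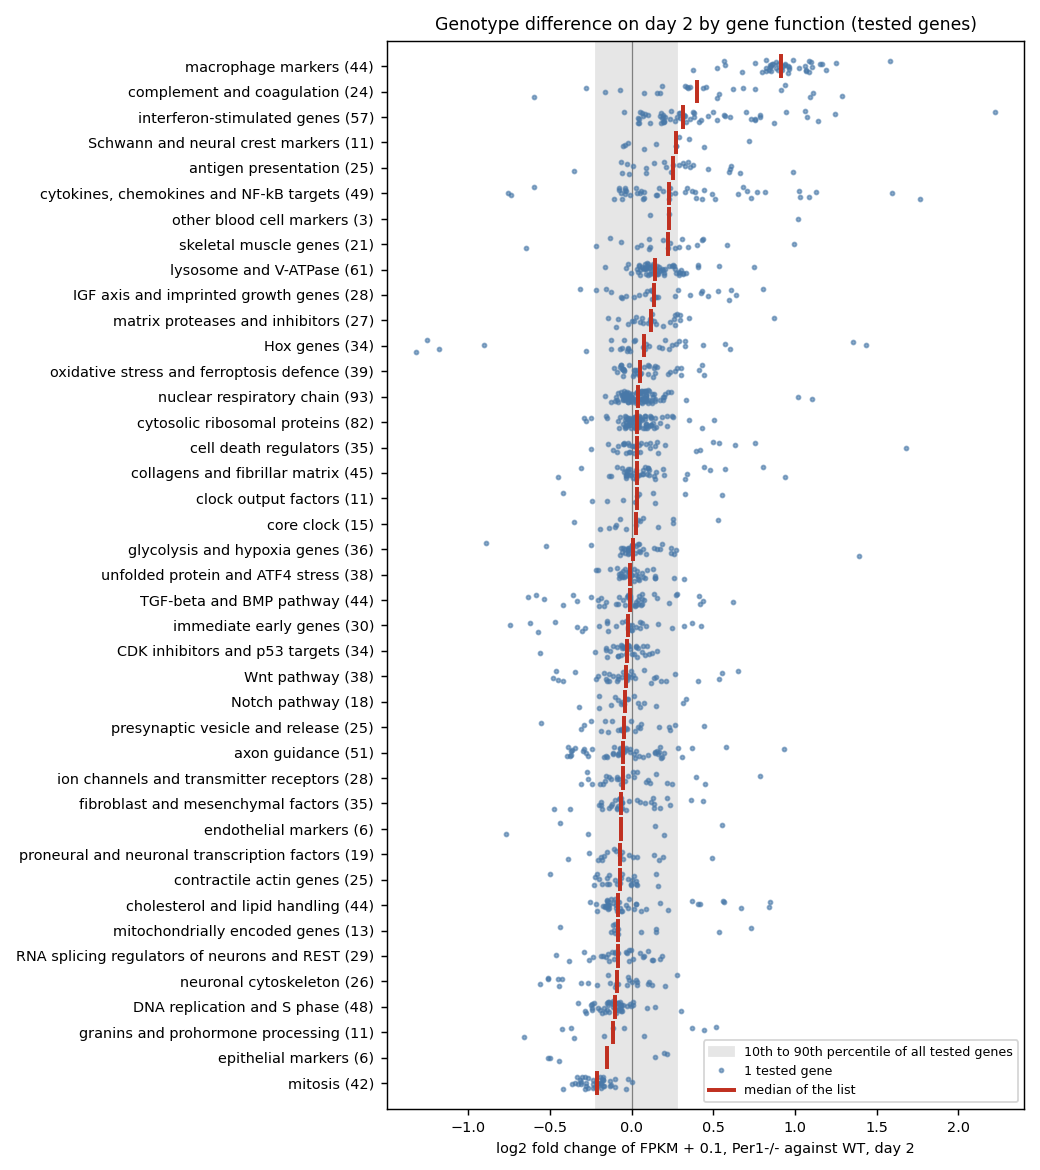
Log2 difference of each tested gene (points) in 41 lists of gene function, Per1-/- against WT on day 2, with list medians as bars, the number tested in parentheses, and the 10th to 90th percentile of all tested genes shaded. Macrophage markers (median 0.92), complement (0.40), and interferon-stimulated genes (0.31) lay highest, and mitosis (-0.21) lowest.

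*Xaf1*, an interferon-stimulated gene whose product antagonizes the apoptosis inhibitor XIAP, lies on chromosome 11 (72301629 to 72313733). It was at 11.9, 8.32, and 7.56 FPKM in the Per1-/- libraries and at 1.94, 2.12, and 1.56 FPKM in the WT libraries. All Per1-/- libraries lay far above all WT libraries. The mean was 9.25 ± 2.31 FPKM (SD, n = 3) against 1.87 ± 0.288 FPKM (SD, n = 3), a log2 difference of 2.23 (standard error 0.332, adjusted p = 0.0191 from limma) or 4.68-fold. Differences of 1.92 on day 0 and 2.00 on day 4 were of like size. The call was lost in each of the 6 fits without one library, with adjusted p between 0.0523 and 0.264, while the difference itself stayed between 2.03 and 2.36.

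The promoter of *Xaf1* is shown because this is the only gene called. In RefSeq (GRCm38.p6) it occupies chr11:72301379-72301678 on the plus strand, and the bases from the start of transcription on are in capitals.
Xaf1: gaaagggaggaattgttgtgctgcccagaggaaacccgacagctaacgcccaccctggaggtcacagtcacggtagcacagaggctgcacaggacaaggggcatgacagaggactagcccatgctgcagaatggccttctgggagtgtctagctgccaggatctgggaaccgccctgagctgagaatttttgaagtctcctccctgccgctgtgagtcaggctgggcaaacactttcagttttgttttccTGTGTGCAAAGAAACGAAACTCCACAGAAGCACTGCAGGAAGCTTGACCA
Neither the E-box CACGTG, which CLOCK and BMAL1 bind, nor a pair of GAAA repeats with 2 bases between them, as found in interferon response elements, occurred on either strand of these 300 bases. They were found in 7.17% and 3.45% of 32544 promoter sequences of that length. GAAANGAAA, with 1 base between the repeats and searched only after the sequence had been seen, matched once, within the capitals, and occurred in 3.19% of promoters. A match of letters does not show that a factor binds.

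Another 2 genes came closest to *Xaf1*, and both lie on chromosome 11 too. *Gm6685* (28339104 to 28339867), a predicted gene of unknown role, was at 2.86, 4.51, and 4.41 FPKM in Per1-/- and 0.960, 1.44, and 0.741 FPKM in WT cells. Its log2 difference was 1.83 (adjusted p = 0.0876 from limma), and it rests on 11 to 67 fragments per library. *Rnf157* (116336353 to 116413032), a ubiquitin ligase known from neurons, was at 0.549, 2.21, and 0.606 FPKM in Per1-/- and 3.44, 3.94, and 3.93 FPKM in WT cells. The groups of both genes did not overlap. The log2 difference of *Rnf157* was -1.92 (adjusted p = 0.468 from limma), and Per1-/- replicate 2 lay between the other Per1-/- libraries and WT.

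**Figure D2:**
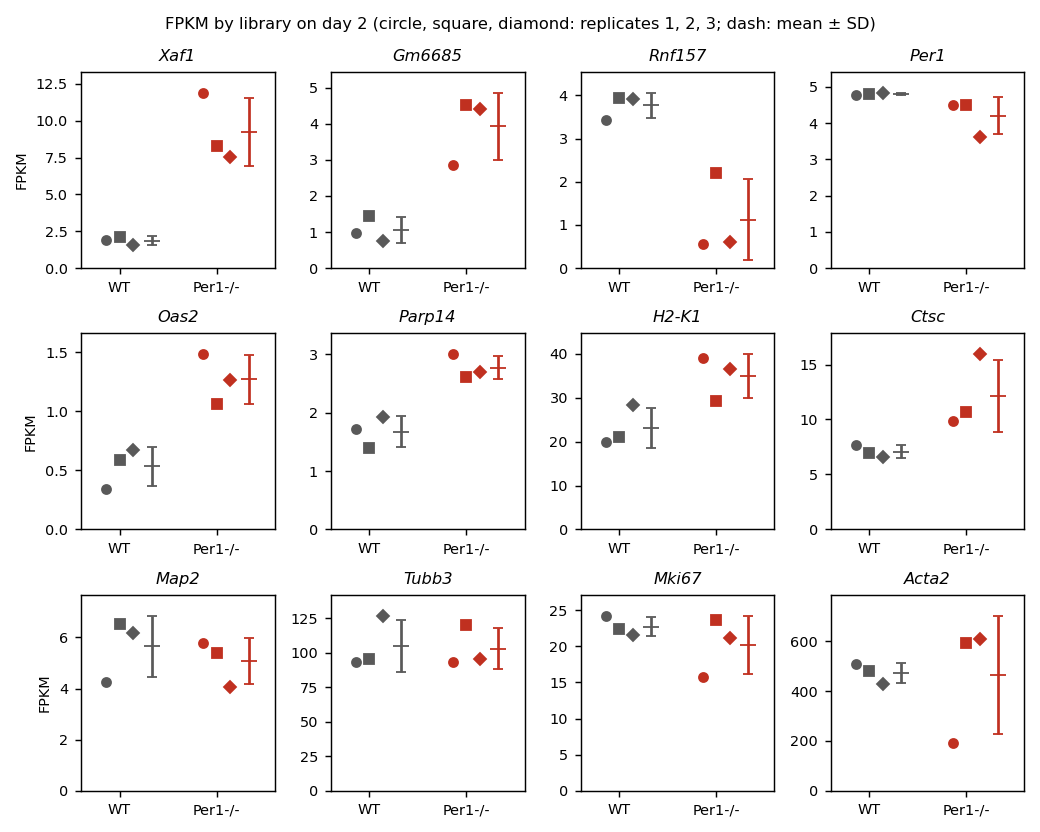
FPKM of 12 genes in each of the 6 libraries of day 2, with a linear axis from 0 for each gene and the mean ± SD beside the points. *Xaf1* and *Gm6685* were higher and *Rnf157* lower in all Per1-/- libraries, whereas *Map2*, *Tubb3*, and *Mki67* overlapped, and *Acta2* was low only in Per1-/- replicate 1.

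Since these 3 genes share the chromosome of *Per1*, differences were also laid out by distance from it. Within 20 Mb of *Per1*, 16 of 507 tested genes (3.16%) were higher at the wider rule and 7 (1.38%) lower, compared with 1.03% and 0.333% of all other genes. The median within 20 Mb was -0.01, the same as over all tested genes. The guidance cue gene *Ntn1* lay 0.886 Mb, *Tmem88* 0.301 Mb, and *Xaf1* 3.21 Mb from *Per1*. *Slfn5*, an interferon-stimulated gene 13.9 Mb away and named after its values were seen, was at 3.34, 1.80, and 2.93 FPKM against 1.00, 0.869, and 1.30 FPKM. Differences of strain around the targeted gene and the loss of *Per1* cannot be told apart in these libraries.

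**Figure D3:**
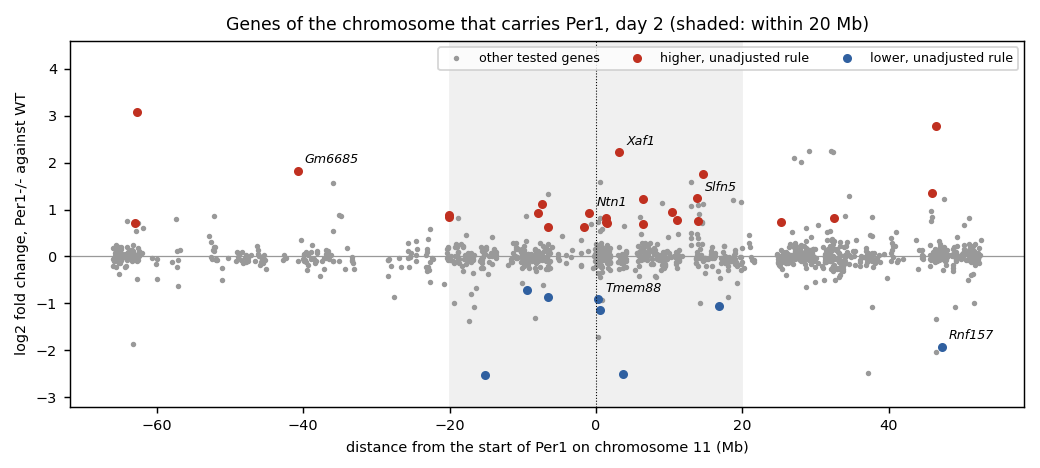
Log2 difference of the 1194 tested genes of chromosome 11 against their distance from the start of *Per1*, with genes past the wider rule in red (25 higher) and blue (8 lower) and the 20 Mb on each side shaded. *Xaf1*, *Slfn5*, *Ntn1*, and *Tmem88* lie in the shaded part, and *Gm6685* and *Rnf157* outside.

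Macrophage markers had the highest median of the 41 lists, and their level is therefore set beside each immune list. Their summed level was 672 to 1388 FPKM in Per1-/- and 360 to 604 FPKM in WT libraries, so the groups did not overlap, and 3 of the 48 markers were at 0 in at least 1 library. All 44 tested markers were above 0, with a median of 0.92, and 9 of the 44 passed the wider rule as higher, against 1.1% of all tested genes. *Mrc1*, the mannose receptor, was at 39, 29.6, and 51.3 FPKM in Per1-/- and 15.2, 15.1, and 21.5 FPKM in WT cells. In bulk RNA, more cells of a type and more RNA of these genes per cell cannot be told apart. The Per1-/- replicates had unlike macrophage levels, with replicate 3 highest and replicate 2 lowest.

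Genes induced by interferon are the second theme, and they are known for defence against viruses. Of 57 tested members, 56 were above 0 and only *Ifit2* was not. The median was 0.31, and 9 members passed the wider rule as higher and 0 as lower, against 1.1% and 0.368% of all tested genes. The libraries did not overlap in 22 members (38.6%, against 5.26% of all tested genes), always with Per1-/- higher. The summed level was 729 to 866 FPKM in Per1-/- and 589 to 661 FPKM in WT libraries. *Ifit2* was chosen after its value was seen.

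Single interferon-stimulated genes differed widely in size. *Oas2*, a sensor of double-stranded RNA, was at 1.48, 1.06, and 1.27 FPKM in Per1-/- and 0.347, 0.585, and 0.671 FPKM in WT cells, a log2 difference of 1.14. *Parp14*, an ADP-ribosyltransferase of the interferon response, was at 3.00, 2.62, and 2.70 FPKM against 1.72, 1.39, and 1.92 FPKM, a difference of 0.70. Neither group of values overlapped, but the adjusted p was 0.999 for both in limma. *Isg15*, a ubiquitin-like modifier, and *Irf7*, a master regulator of the response, overlapped between the groups, with differences of 0.24 and 0.32.

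A fit with the macrophage marker mean as a covariate puts the median of those markers near 0 by construction (0.00). Marker levels of the genotypes did not overlap, and the slope came from differences within the 9 groups of all days. Values with the covariate are therefore extrapolated, and do not tell macrophage content and genotype apart. In that fit, the median of the interferon-stimulated genes was 0.44. Of the 9 members past the wider rule, 7 stayed at least 0.58 higher in that fit. The median was 0.32 without the 7 members within 20 Mb of *Per1*, 0.23 without Per1-/- replicate 1, 0.36 without Per1-/- replicate 2, and 0.38 without Per1-/- replicate 3. On day 0 it was 0.12, and on day 4 it was 0.30.

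Genes of antigen presentation had a median of 0.25. *H2-K1*, a classical class I heavy chain, was at 39, 29.3, and 36.4 FPKM in Per1-/- and 19.8, 21, and 28.3 FPKM in WT cells, a log2 difference of 0.61. *H2-D1*, another, was at 80.4, 64.4, and 91.0 FPKM against 48, 44.7, and 62.8 FPKM, a difference of 0.60. The groups did not overlap in either gene. Of 25 tested members of the list, 20 were above 0 and 5 below, and 3 passed the wider rule as higher (1.1% of all tested genes did), the other being the lysosomal protease *Ctss* (0.98). With the macrophage covariate the median was 0.18, and the differences of *H2-K1*, *H2-D1*, and *Ctss* were 0.56, 0.40, and 0.11. Class I genes have close relatives, and reads that fit several of them may not have been counted.

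Cytokines, chemokines, and targets of NF-kB had a median of 0.23, with more spread among their members. Of 49 tested members, 36 were above 0, and 3 passed the wider rule as higher, against 1.1% of all tested genes. *Il33*, an alarmin made by stromal cells, was at 3.43, 1.14, and 1.48 FPKM in Per1-/- and 0.749, 1.06, and 0.571 FPKM in WT cells. Its difference of 1.13 was 0.68 without Per1-/- replicate 1. *Ccl4*, a chemokine of macrophages, differed by 1.77 but rested on 3 to 46 fragments per library. *Ccl2*, another chemokine, was at 14.1 to 20.2 FPKM and 8.85 to 16.3 FPKM, which overlap. The list median was 0.05 with the macrophage covariate, 0.11 without Per1-/- replicate 1, and 0.11 without the 11 members within 20 Mb of *Per1*.

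Lysosomal genes, which serve degradation in all cells and are abundant in phagocytes, showed small differences, most of them above 0. Of 61 tested members 57 were above 0, with a median of 0.14, and the libraries did not overlap in 15 (24.6%, against 5.26% of all genes). *Ctsc*, a protease that activates other proteases of granules, was the 1 member past the wider rule, at 9.90, 10.7, and 15.9 FPKM in Per1-/- and 7.72, 6.91, and 6.55 FPKM in WT cells. *Lgmn*, the asparaginyl endopeptidase, differed by 0.54 without overlap, and *Lamp1*, a membrane protein of all lysosomes, by 0.07 with overlap. The median was 0.06 with the macrophage covariate.

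Genes of complement and coagulation had a median of 0.40 over 24 tested members, 20 of them above 0. Properdin (*Cfp*) was at 11.3, 7.79, and 11.6 FPKM in Per1-/- and 6.14, 5.0, and 6.85 FPKM in WT cells, and *C2*, a protease of the classical pathway, at 0.521 to 0.571 and 0.249 to 0.399 FPKM. Both passed the wider rule without overlap, as the only 2 of the 24 to pass it (1.1% of all tested genes were higher by it). The libraries did not overlap in 6 members (25%, against 5.26% of all tested genes), with Per1-/- higher. *C3*, the central component, overlapped. The median depended on Per1-/- replicate 1, being 0.18 without it, and was 0.13 with the macrophage covariate.

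The neuronal lists had medians close to 0. *Tubb3*, the neuronal tubulin used to recognize iNs, was at 93.0, 120, and 95.3 FPKM in Per1-/- and 92.9, 95.1, and 127 FPKM in WT cells. *Map2*, a dendritic microtubule protein, was at 4.05 to 5.79 and 4.26 to 6.51 FPKM. The groups overlapped in both genes, with log2 differences of -0.03 (standard error 0.226) and -0.14 (standard error 0.348).

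All 6 medians of the neuronal lists lay slightly below 0. They were -0.07 for 19 transcription factors, -0.09 for 26 cytoskeletal genes, -0.04 for 25 genes of synaptic vesicles and release, -0.12 for 11 granins and prohormone enzymes, -0.05 for 28 channels and receptors, and -0.05 for 51 genes of axon guidance. Their sign depended on single libraries. Without WT replicate 3 the medians of the transcription factors, the synaptic vesicle genes, and the channels were 0.05, 0.03, and 0.03, and without Per1-/- replicate 3 that of the transcription factors was 0.04. Without Per1-/- replicate 1 the medians of the cytoskeletal and the axon guidance genes were 0.00 and 0.01. The granin median was below 0 without any one library.

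Few single neuronal genes stood out. *Kcnab2*, a subunit of potassium channels, was at 3.71, 2.88, and 4.13 FPKM in Per1-/- and 1.81, 2.07, and 2.18 FPKM in WT cells, and its difference of 0.78 was 0.16 with the macrophage covariate. *Ntn1*, a secreted guidance cue, was at 6.87, 2.92, and 6.11 FPKM against 2.02, 3.16, and 2.62 FPKM, and Per1-/- replicate 2 fell within the WT range. With the covariate its difference was 0.99. *Ntn1* overlaps other annotated genes, and the libraries did not keep the strand, so that reads of *Ntn1* and its neighbours cannot be told apart. Of the lower genes, *Stmn3*, which regulates microtubules, differed by -0.51, and *Chga*, a granin, by -0.66, both with overlapping libraries and at most 1.31 FPKM in any library.

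The Notch pathway, which holds back neuronal differentiation, had a median of -0.04 over 18 genes, and 0 of them passed the wider rule. The regulators of neuronal splicing and the REST complex had a median of -0.09 over 29 genes, which was -0.02 without Per1-/- replicate 1. *Ss18l1* and *Phf10*, which are subunits of BAF chromatin remodelling complexes, were lower in all Per1-/- libraries, at 3.10 to 3.42 against 3.57 to 4.56 FPKM and at 12.8 to 14.6 against 15.1 to 17.9 FPKM. The differences of -0.29 and -0.23 did not reach the fold of the rule. *Rest* itself was at 12.6 to 14.2 and 12.6 to 15.2 FPKM.

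Genes of the fibroblast state also had medians close to 0. *Col1a1*, the main chain of type I collagen, was at 1656, 1547, and 1650 FPKM in Per1-/- and 1647, 2078, and 1208 FPKM in WT cells, a wider spread in WT. The median was 0.03 for 45 collagens and matrix genes, -0.06 for 35 mesenchymal factors, -0.01 for 44 genes of the TGF-beta and BMP pathway, and -0.03 for 38 genes of the Wnt pathway. None of these 4 lists had a member past the wider rule. With the macrophage covariate the median of the collagens and matrix genes was 0.23, with 38 of 45 above 0. In that fit the medians of the mesenchymal, TGF-beta and BMP, and Wnt lists were -0.04, -0.04, and 0.01. Matrix proteases and their inhibitors had 23 of 27 genes above 0, with a median of 0.12, which was 0.06 without Per1-/- replicate 1.

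Of the 44 TGF-beta and BMP genes, 1 was higher and 2 were lower without overlap, shares below those over all tested genes (5.26% and 5.02%). *Tgfb1*, the ligand, was at 11.9, 11.2, and 14.2 FPKM in Per1-/- and 9.01, 8.23, and 10.3 FPKM in WT cells, a difference of 0.43. *Bmp2*, another ligand of the family, was lower in all Per1-/- libraries, at 1.5 to 2.30 against 2.63 to 4.00 FPKM, a difference of -0.64. *Igfbp3*, which binds insulin-like growth factors, was at 153, 129, and 197 FPKM against 103, 117, and 91.8 FPKM, a difference of 0.61. Its list, the IGF axis and imprinted growth genes, had 21 of 28 genes above 0 and a median of 0.13.

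Per1-/- replicate 1 set the differences of several contractile and matrix genes. *Acta2*, smooth muscle actin, was at 190 FPKM in this library and 595 and 610 FPKM in the other Per1-/- libraries, with 429 to 508 FPKM in WT cells. *Dcn*, the proteoglycan decorin, was at 147 FPKM there and 36.8 to 75.9 FPKM in the other 5, and *Mfap5*, a microfibril protein, at 12.3 and 1.97 to 4.61 FPKM. Without this library the difference of *Acta2* changed from -0.20 to 0.35, that of *Dcn* from 0.81 to 0.37, and that of *Mfap5* from 0.94 to 0.35. The median of the contractile list changed from -0.07 to 0.10.

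**Figure D4:**
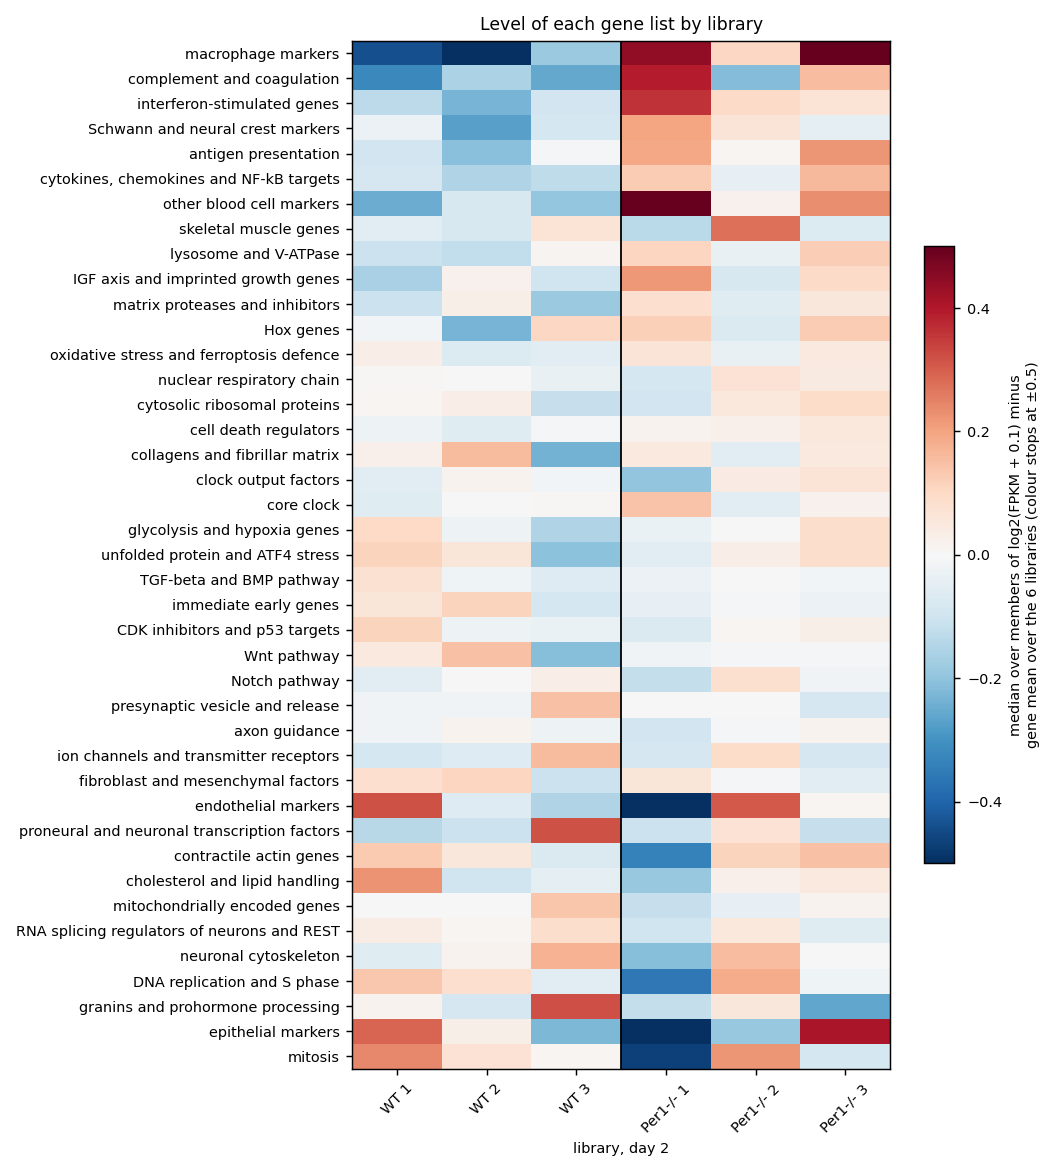
Level of each of the 41 lists in each library of day 2, as the median over tested members of the log2 value minus the gene's mean over the 6 libraries (red above, blue below, colour limited at ±0.5). Macrophage markers were above in all Per1-/- libraries, and Per1-/- replicate 1 was lowest for mitosis (-0.47), DNA replication (-0.36), and contractile genes (-0.34).

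Mitotic genes were the list with the lowest median, -0.21, and 0 of its 42 members were above 0. The sizes were small, however, and 0 members passed the wider rule. *Mki67*, a marker of cycling cells, was at 15.8, 23.7, and 21.2 FPKM in Per1-/- and 24.2, 22.4, and 21.6 FPKM in WT cells. *Hmmr*, which acts at the spindle, was at 4.92, 7.66, and 5.41 FPKM against 8.51, 8.05, and 7.22 FPKM. In both, the values overlapped. *Bub3*, a checkpoint protein, did not overlap, but its difference was only -0.13. Genes of DNA replication had 43 of 48 members below 0 and a median of -0.10.

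The medians depended on single libraries. Without Per1-/- replicate 1 the median of the mitotic genes was -0.05 and that of the replication genes 0.03, and without Per1-/- replicate 2 they were -0.38 and -0.23. On day 0 the medians were 0.05 and 0.05, and on day 4 -0.08 and -0.03. Inhibitors of cyclin-dependent kinases and targets of p53 had a median of -0.03, and *Cdkn1a*, the p21 gene, was at 90.5 to 100 FPKM in Per1-/- and 79.2 to 93.7 FPKM in WT cells.

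Regulators of cell death had a median of 0.03, with 2 of 35 tested genes higher at the wider rule, against 1.1% of all tested genes. *Gsdmd*, the pore-forming protein of pyroptosis, was at 7.72, 6.16, and 7.57 FPKM in Per1-/- and 3.78, 4.16, and 5.98 FPKM in WT cells. Its difference of 0.63 was 0.65 with the macrophage covariate. *Bcl2a1b*, an antiapoptotic gene of blood cells with near-identical copies, rested on 2 to 25 fragments.

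Lists of housekeeping functions lay within 0.09 of 0 by their medians. The median was 0.04 for 82 cytosolic ribosomal proteins, 0.04 for 93 nuclear genes of the respiratory chain, -0.09 for 13 genes of the mitochondrial genome, and 0.01 for 36 genes of glycolysis and hypoxia. It was -0.01 for 38 genes of the unfolded protein response, 0.05 for 39 genes of oxidative stress defence, and -0.08 for 44 genes of cholesterol and lipid handling. With the macrophage covariate the cholesterol and lipid median was 0.17, with 38 of 44 genes above 0. The unfolded protein median was then 0.08, and that of the mitochondrial genome -0.14. Only *Cebpa*, a transcription factor of fat and myeloid cells, passed the wider rule in these 7 lists, and Per1-/- replicate 1 set its value (15.9 FPKM, against 4.34 to 7.78 FPKM in the other 5). *Fth1*, the ferritin heavy chain, was at 766, 578, and 900 FPKM in Per1-/- and 554, 482, and 597 FPKM in WT cells. Some members lay far from their list median. In the glycolysis and hypoxia list the differences ran from -0.89 (*Car12*) to 1.39 (*Gapdh*), and the highest in the nuclear respiratory chain was 1.11. That of *Gapdh* was 1.95 without Per1-/- replicate 1 and ranged from 0.16 to 2.07 over the settings.

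Immediate early genes, which answer to serum and activity within minutes, had a median of -0.02. *Arc*, known from synapses, was lower at the wider rule, at 1.08, 1.33, and 0.773 FPKM in Per1-/- and 1.84, 2.33, and 1.36 FPKM in WT cells. *Fos*, an AP-1 subunit, was at 7.84 to 9.96 FPKM and 8.51 to 15.9 FPKM, so that a single WT library fell into the Per1-/- range. *Dusp6*, a phosphatase that restrains ERK, went the other way without overlap, at 10.8 to 13.3 against 7.15 to 9.65 FPKM.

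No gene of the clock passed the wider rule. The core clock list had 8 genes above and 7 below 0 with a median of 0.02, and the clock output factors had a median of 0.03. *Per2*, the paralog of *Per1*, was at 2.02, 1.85, and 1.79 FPKM in Per1-/- and 1.55, 1.78, and 1.39 FPKM in WT cells. *Per3* was at 3.97, 2.45, and 2.55 FPKM against 1.79, 1.95, and 2.28 FPKM. The groups did not overlap in either gene, with differences of 0.26 and 0.53, the latter 0.31 without Per1-/- replicate 1. With *Per1*, these were the 3 genes without overlap of the 15 tested, 2 higher and 1 lower, against 5.26% and 5.02% of all tested genes. *Dbp*, a direct target of CLOCK and BMAL1, was at 6.22 to 7.37 and 5.23 to 5.72 FPKM, a difference of 0.32 without overlap. Each library is a single time of harvest, so amplitude and phase could not be compared.

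Endothelial and epithelial markers were low. Only 1 of 18 endothelial markers and 1 of 16 epithelial markers had at least 1 FPKM in all 6 libraries, and their medians were -0.06 and -0.15 over 6 tested genes each. Markers of other blood cells had 3 tested genes, all above 0, and a summed level of 11.2 to 14.2 FPKM in Per1-/- and 7.50 to 8.70 FPKM in WT libraries. The 3 genes were *Pf4* (1.02), *Itga2b* (0.23), and *Gata2* (0.11). Their median was 0.23 on day 2, -0.13 on day 0, and -0.08 on day 4. Of 15 Schwann cell and neural crest markers 9 had at least 1 FPKM in all 6 libraries, and the median was 0.27 over 11 tested genes, which was 0.11 without Per1-/- replicate 1. Of 34 skeletal muscle genes 12 had at least 1 FPKM in all 6 libraries. Their median was 0.22 on day 2, 0.06 without Per1-/- replicate 2, 0.10 with a pseudocount of 1, and 1.14 on day 0. *Tnni2*, a troponin subunit of fast muscle, was at 0.688, 0.927, and 0.638 FPKM in Per1-/- and 0.258, 0.464, and 0.275 FPKM in WT cells, and was the 1 muscle gene past the wider rule.

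Hox genes, which record the position of a cell along the body and limb, had a median of 0.08 over 34 genes with a wide spread. *Hoxa13*, active in the distal limb, was at 3.00, 8.90, and 4.43 FPKM in Per1-/- and 15.1, 19, and 4.96 FPKM in WT cells, so that WT replicate 3 lay with the Per1-/- libraries. *Tbx4*, a factor of the hindlimb that was chosen after its values were seen, was at 5.65, 6.38, and 3.52 FPKM against 17.1, 14, and 4.89 FPKM, with the same WT library low. *Hoxc12* was at 1.87, 1.40, and 5.95 FPKM against 0.936, 0.730, and 0.948 FPKM, with Per1-/- replicate 3 high.

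Many of the higher genes belonged to no list. Of the 164 genes, 102 were protein-coding genes outside the lists, and 9 were macrophage markers. The genes with the smallest p among those without overlap included *Ehd4*, a protein of endosomal recycling, at 12.9, 12.4, and 17.9 FPKM in Per1-/- and 9.27, 7.88, and 9.48 FPKM in WT cells. *Pax9*, a transcription factor of skeletal and pharyngeal development, was at 1.06, 0.935, and 0.686 FPKM against 0.252, 0.504, and 0.336 FPKM. *Apobr*, a lipoprotein receptor of macrophages, differed by 0.69, *Maf*, a transcription factor of macrophages, by 0.70, *Vsir*, an immune checkpoint, by 0.94, and *Nxpe5* by 1.73. With the macrophage covariate the differences of *Ehd4* and *Vsir* were 0.41 and 0.50, whereas those of *Pax9* and *Apobr* were 1.22 and 0.70. Over all 164 genes, 75 stayed at least 0.58 higher with the covariate, and the median was 0.50.

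The lower genes formed no list, and only *Arc* and *Hoxa13* of the 55 were list members. *Lhx9*, a transcription factor of limb and gonad, was at 0.958, 3.06, and 1.94 FPKM in Per1-/- and 3.75, 5.34, and 3.52 FPKM in WT cells. *Shank1*, a postsynaptic scaffold, was at 0.689, 0.836, and 0.670 FPKM against 1.18, 1.20, and 1.11 FPKM. *Lix1*, known from limb and hindbrain, was at 0.762 to 1.36 and 1.56 to 2.07 FPKM. All 3 were without overlap, at differences of -1.16, -0.61, and -0.68, and that of *Lhx9* was -0.74 without Per1-/- replicate 1. With the macrophage covariate 49 of the 55 genes stayed at least 0.58 lower.

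**Figure D5:**
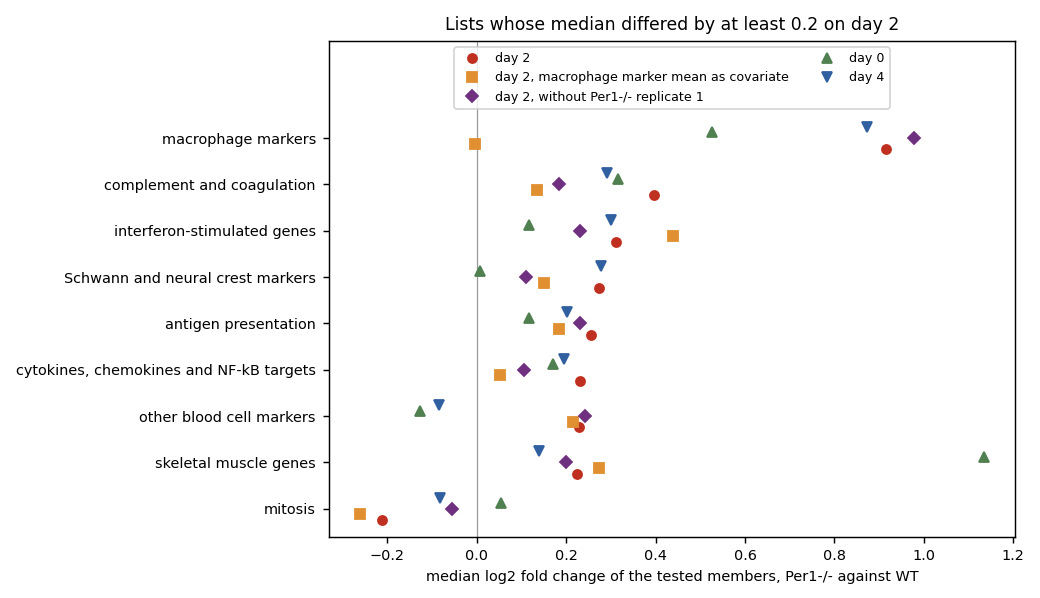
Median log2 difference of the tested members for the 9 lists at or beyond 0.2 in size on day 2, with the same on days 0 and 4, with the macrophage covariate, and without Per1-/- replicate 1. Interferon-stimulated genes, complement, antigen presentation, cytokines, muscle, and Schwann cell markers were above 0 in all 5, and mitosis was at -0.05 without the library. Macrophage markers were at 0.00 with the covariate by construction, because it is their own mean.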

How the data were processed

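Libraries were made from poly(A) RNA without keeping the strand, 3 for each of 3 genotypes on days 0, 2, and 4. As described by the authors, reads were aligned with HISAT2 (version 2.0.5) to mm10 and counted per gene with featureCounts (version 1.5.0-p3). The deposited FPKM values are the authors' counts divided by gene length and library size. They returned whole fragments when multiplied by length in 100% of cases (tolerance 0.01), and the libraries held 15815013 to 24264097 fragments. Columns were matched to samples by name.

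Values were taken as log2(FPKM + 0.1). Genes with a mean of 0.5 FPKM or more were fitted with limma 3.58.1 (R 4.3.3), using all 9 groups and a mean-dependent prior, and the contrast of Per1-/- with WT on day 2 was drawn from that fit. A gene was called at 0.05 or less for the adjusted p, with a log2 difference of 0.58 or more in size. Tables and figures were made with Python 3.11.15, numpy 2.4.6, pandas 2.3.3, and matplotlib 3.10.9. The main fit was tested on simulated data for the contrast of day 2, and the alternative fits were not.

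The members, the 41 lists, and the tests were chosen with earlier results of these data known. Named genes were *Per1*, *Per2*, and the transduced factors (of which not all are reported here), genes called, the first 2 symbols and the 3 smallest p of each list, and, outside the lists, the 10 higher and 10 lower protein-coding genes with the smallest p, the fold above, and no overlap. Others are said to be chosen after their values were seen. Lists were described by counts and medians, without a set test. The macrophage covariate was the mean log2 value of the tested macrophage markers in each library. Its slope was estimated within the 9 groups over all 27 libraries, and marker levels did not overlap between the genotypes on day 2. Promoters came from RefSeq (GRCm38.p6), with motifs searched on both strands.

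Alternatives were pseudocounts of 1 and 0.01, a mean of 1 FPKM or no filter, fits of fewer libraries, rescaling, voom weights on fragments, replicate blocks, the covariate, no minimum fold, and leaving out each library. Tests of the authors' own counts with other tools were not run. Per2-/- libraries were not compared, but they entered the mean that chose the tested genes, the estimate of spread, and the slope of the covariate.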

Additional observations from a re-analysis of the deposited data

How the results depend on the processing

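*Xaf1* was called in 10 of 12 alternatives that kept all 6 libraries (adjusted p from limma 0.00311 to 0.227) and in 0 of 6 that left out a library. It was lost when only the groups compared were fitted (0 called higher, *Xaf1* adjusted p = 0.227) and with the 9 libraries of day 2 (0 called, 0.0819). With a pseudocount of 1, or without a filter, 2 genes were called higher, and without a filter 1 was called lower. Without a filter 2 genes differed between day 2 and day 0, and 4 between day 2 and day 4. Leaving out a library gave 0 genes called higher and 0 to 1 called lower, the 1 being *Rnf157* without Per1-/- replicate 2.

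At the unadjusted rule, the 164 higher and 55 lower genes became 590 and 422 without a filter, and 283 and 127 without a minimum fold. The higher genes numbered 303 with only the groups compared and 294 with the libraries of day 2. The lower genes numbered 29 with a pseudocount of 1, 32 with a mean of at least 1 FPKM, and 83 with the macrophage covariate. Leaving out a library gave 77 to 247 higher and 40 to 114 lower genes. The higher genes numbered 100 without Per1-/- replicate 1, 247 without Per1-/- replicate 2, 77 without Per1-/- replicate 3, and 101 without WT replicate 2, and the lower genes 107 without Per1-/- replicate 2 and 114 without WT replicate 3. The share of higher genes was 74.9%, against 62.3% after rescaling, 58.5% with the covariate, 58.3% without a filter, 61.4% without Per1-/- replicate 1, and 64.7% without Per1-/- replicate 3. Without the macrophage markers, an alternative added after the data were seen, 155 genes were higher. The cause of these shifts was not tested.

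The replicate numbers did not pair the genotypes, with correlations of -0.056, 0.085, and 0.048 between same-numbered libraries. With the number as a replicate block, 1 gene was called higher, 0 lower, and 223 and 61 passed the unadjusted rule. Over 19 settings, 18 of 41 list medians never changed sign, and over 17 or 18 settings, 175 of 223 named genes did not. Genes below about 1 FPKM rest on few fragments, and differences of the size of the median standard error, 0.163, were not detectable in 3 libraries against 3.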

Other observations

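Another 3 genes outside the lists were chosen because they were higher at the unadjusted rule, after their values were seen, and stand for no group of genes. *Sirpa*, a receptor that binds CD47, was at 38.2, 32.4, and 48.9 FPKM in Per1-/- and 23, 19.5, and 27.4 FPKM in WT cells. *Syk*, a kinase of immune receptors, was at 3.12, 2.56, and 4.29 FPKM against 2.07, 1.5, and 2.2 FPKM. *Was*, which drives actin assembly in blood cells, was at 3.19, 2.27, and 4.22 FPKM against 1.72, 1.34, and 1.99 FPKM. The groups did not overlap in these genes, and with the macrophage covariate the log2 differences of 0.76, 0.75, and 0.87 were 0.31, 0.24, and 0.24.

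Over all tested genes 1.1% were higher and 0.368% lower at the unadjusted rule. Of 258 lincRNA genes 4 were higher (1.55%) and 1 was lower (0.388%), of 277 antisense genes 3 were higher (1.08%) and 5 lower (1.81%), and of 128 snoRNA genes 1 was higher (0.781%) and 4 were lower (3.13%). Poly(A) libraries measure snoRNA poorly. Of 698 tested genes of chromosome 17, 16 were higher (2.29%) and 1 was lower (0.143%), compared with 25 (2.09%) and 8 (0.67%) of 1194 on chromosome 11.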
